A study of Homo sapiens with 6 samples.

Results

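The peaks described here are those that anti-SF3B4 RNA immunoprecipitation and sequencing (RIP-seq) gave on human chromosome 3. Members were chosen by the chromosome column of 4 deposited peak lists alone, which gave 13430 of 181131 peaks. The study used wild-type HEK293T cells, an embryonic kidney line that carries the SV40 large T antigen, in 2 experiments named RIP-2 and RIP-1. Each had 1 anti-SF3B4, 1 IgG and 1 input library from the same line, and the design text describes the experiments as repeats that were set against each other to leave out nonspecific signal. Peaks were deposited once per experiment, divided into a list called NotExon, here the non-exon list, and a list called mRNA, so the 4 chromosome 3 lists held 10138 (RIP-2) and 1930 (RIP-1) non-exon peaks and 689 (RIP-2) and 673 (RIP-1) mRNA-list peaks. No values of IgG or input libraries were at hand, and which of them served as control for the peaks is not given. With an unknown depth and 1 list per experiment, no test between RIP-2 and RIP-1 was possible, and the 95% intervals (Wilson intervals for shares) cover counting error only.

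SF3B4 is a subunit of SF3b, a protein complex of the U2 snRNP that holds the branch site of an intron while the spliceosome assembles. SF3B4 touches the pre-mRNA close to that site, so intronic RNA is the usual place of contact and spliced exons are not. METTL16, named with SF3B4 in the title of the series, is a methyltransferase that places N6-methyladenosine on the U6 small nuclear RNA and on hairpins of the MAT2A mRNA. Chromosome 3 is among the largest human chromosomes and its arms are of similar length. Its short arm is known for tumour suppressor genes such as VHL, RASSF1 and the very long FHIT, and for long neuronal genes. Positions are in hg19, per the submitters' processing notes, and no gene was assigned to a peak because that would need an annotation of the same build.

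Chromosome 3 carried 7.56% of the RIP-2 non-exon list (95% CI 7.42 to 7.70) and 7.48% of the RIP-1 non-exon list (95% CI 7.17 to 7.81). Its part of the mRNA lists was smaller, at 6.70% in RIP-2 (95% CI 6.23 to 7.20) and 6.14% in RIP-1 (95% CI 5.71 to 6.61). Measured up to the last peak, non-exon peaks stood at 51.2 per Mb in RIP-2, against a median of 42.6 over the other 22 chromosomes without Y, which ranked chromosome 3 in place 2 of 23. In RIP-1 the density was 9.75 per Mb, against a median of 8.35 elsewhere, in place 3 of 23. The mRNA-list density was ordinary, with 3.48 peaks per Mb in RIP-2 against a median of 3.40 elsewhere, and 3.40 in RIP-1 against 3.46. By this measure chromosome 3 was rich in non-exon peaks in both experiments, while its mRNA-list density lay at the middle of the chromosomes. The lengths count stretches without any peak, which were not removed and can differ between chromosomes, so the places are approximate.

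The excess of RIP-2 over RIP-1 non-exon peaks was not larger on chromosome 3 than elsewhere. There were 5.25 RIP-2 peaks for each RIP-1 peak on chromosome 3 (95% CI 5.003 to 5.51), against 5.19 on the other chromosomes (95% CI 5.12 to 5.27). The intervals overlapped, and chromosome 3 stood in place 9 of 23, between 2.64 on chromosome 19 and 6.92 on chromosome 13. For the mRNA lists the number was 1.02 on chromosome 3 (95% CI 0.921 to 1.14) and 0.932 on the other chromosomes (95% CI 0.907 to 0.959).

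**Figure D1:**
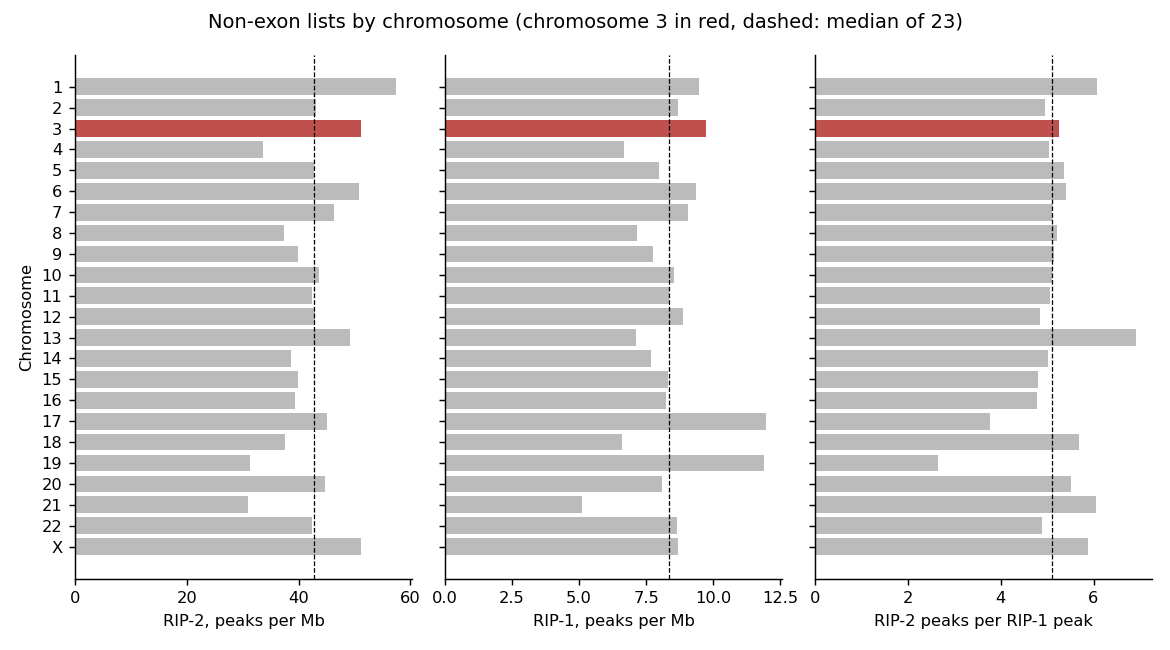
Non-exon peaks per Mb in RIP-2 (left), in RIP-1 (middle) and RIP-2 peaks per RIP-1 peak (right) for 23 chromosomes, with chromosome 3 in red and the median of the 23 as a dashed line. Chromosome 3 is near the top in both densities (51.2 and 9.75 per Mb), but its 5.25 RIP-2 peaks per RIP-1 peak lie close to the median.

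Since position chose the members, the counts by arm and window below are a description, without a test. The short arm, here all midpoints before 90.5 Mb, held more non-exon peaks than the longer long arm in both experiments. RIP-2 had 5751 non-exon peaks on the short arm and 4387 on the long arm, or 63.5 and 40.1 per Mb, a ratio of 1.59 (95% CI 1.53 to 1.65). RIP-1 had 1026 and 904, or 11.3 and 8.26 per Mb, a ratio of 1.37 (95% CI 1.26 to 1.502). Both ratios were above 1, and that of RIP-2 was the larger. Their intervals treat neighbouring peaks of a list as independent, so they are no test of the arms or between experiments. Without the window of the arm boundary and the last window the ratios were 1.51 in RIP-2 and 1.32 in RIP-1. The mRNA lists showed no such tilt: RIP-2 had 300 peaks on the short arm and 389 on the long arm, a density ratio of 0.933 (95% CI 0.803 to 1.08), and RIP-1 had 289 and 384, a ratio of 0.911 (95% CI 0.782 to 1.06). As a result, the short arm carried 5.61 RIP-2 non-exon peaks per RIP-1 peak (95% CI 5.25 to 5.99), against 4.85 on the long arm (95% CI 4.52 to 5.21). Bases covered by RIP-2 non-exon peaks made up 4.39% of the short arm and 2.55% of the long arm, and for RIP-1 the values were 1.12% and 0.757%.

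Around the boundary the 4 lists were empty over 3.09 Mb, from the end of a RIP-2 non-exon peak at 90420880 to the start of the next at 93509335. This was the longest stretch of chromosome 3 without any peak, and the next longest, from 95501937 to 95813751, was 312 kb. The last RIP-2 non-exon peak of the short arm scored 118 with a fold enrichment of 11.1, and the first of the long arm scored 53.6 with a fold enrichment of 6.07. The nearest RIP-1 non-exon peaks scored 52.4 on the short-arm side and 51.2 on the long-arm side. The deposited score looks like the -log10 p-value of the peak caller multiplied by 10, with a floor of 50, so 3 of these 4 boundary peaks lay close to the floor. The mRNA lists ended farther out, at 89156986 in RIP-2 and 89468540 in RIP-1, and began again at 93772030 in RIP-2 and 93698982 in RIP-1.

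Cut into 40 windows of 5 Mb, chromosome 3 had RIP-2 non-exon counts between 76 and 457, with a median of 262.5, and RIP-1 counts between 10 and 89, with a median of 51. The lowest count of both lists was in the window from 90 to 95 Mb, which holds the arm boundary. Of the 18 windows wholly on the short arm, 16 were at or above the mean per window in RIP-2 and 15 in RIP-1. Of the 21 windows wholly on the long arm, 5 reached the mean in RIP-2 and 7 in RIP-1. The last of these windows was only partly filled, since the last peak ended at 197959267. The short-arm exceptions common to both experiments lay from 80 to 90 Mb. There RIP-2 had 156 and 205 non-exon peaks and RIP-1 had 26 and 35, and the mRNA lists were almost empty, with 1 and 5 peaks in RIP-2 and 1 and 4 in RIP-1.

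The densest RIP-2 non-exon windows formed a block on the short arm. The window from 60 to 65 Mb held 457 RIP-2 peaks, or 1.80 times the mean, and that from 55 to 60 Mb held 406, or 1.60 times. They were followed by 50 to 55 Mb with 375, 10 to 15 Mb with 369 and 65 to 70 Mb with 359 RIP-2 peaks. RIP-1 non-exon peaks were densest in part of that block and just beside it. Within the block they numbered 89 from 50 to 55 Mb (1.84 times the RIP-1 mean) and 70 from 55 to 60 Mb (1.45 times). Beside it, 80 lay from 45 to 50 Mb (1.66 times). The next were 69 RIP-1 peaks from 120 to 125 Mb and 68 from 30 to 35 Mb. The highest windows of the experiments were thus 10 Mb apart at their starts, and both lay on the short arm.

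Towards the tip of the long arm both lists had fewer peaks per window than their means. In 3 of the 4 windows from 180 Mb on, RIP-2 was further below its mean than RIP-1. Between 180 and 185 Mb the RIP-2 list held 111 non-exon peaks, or 0.438 times its mean, and RIP-1 had 34, or 0.705 times. From 195 Mb to the end RIP-2 had 112 peaks, or 0.442 times, and RIP-1 had 39, or 0.808 times. That window was only partly filled, since the last peak ended at 197959267. Its counts set a shorter stretch against full windows, so they cannot be read as a low density. Between 185 and 190 Mb the RIP-2 list held 156 peaks, or 0.616 times, and the RIP-1 list 37, or 0.767 times. From 190 to 195 Mb the order was the other way, with 110 RIP-2 peaks, or 0.434 times, and 16 RIP-1 peaks, or 0.332 times. The last window gave the lowest number of RIP-2 peaks per RIP-1 peak on the chromosome, 2.87.

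**Figure D2:**
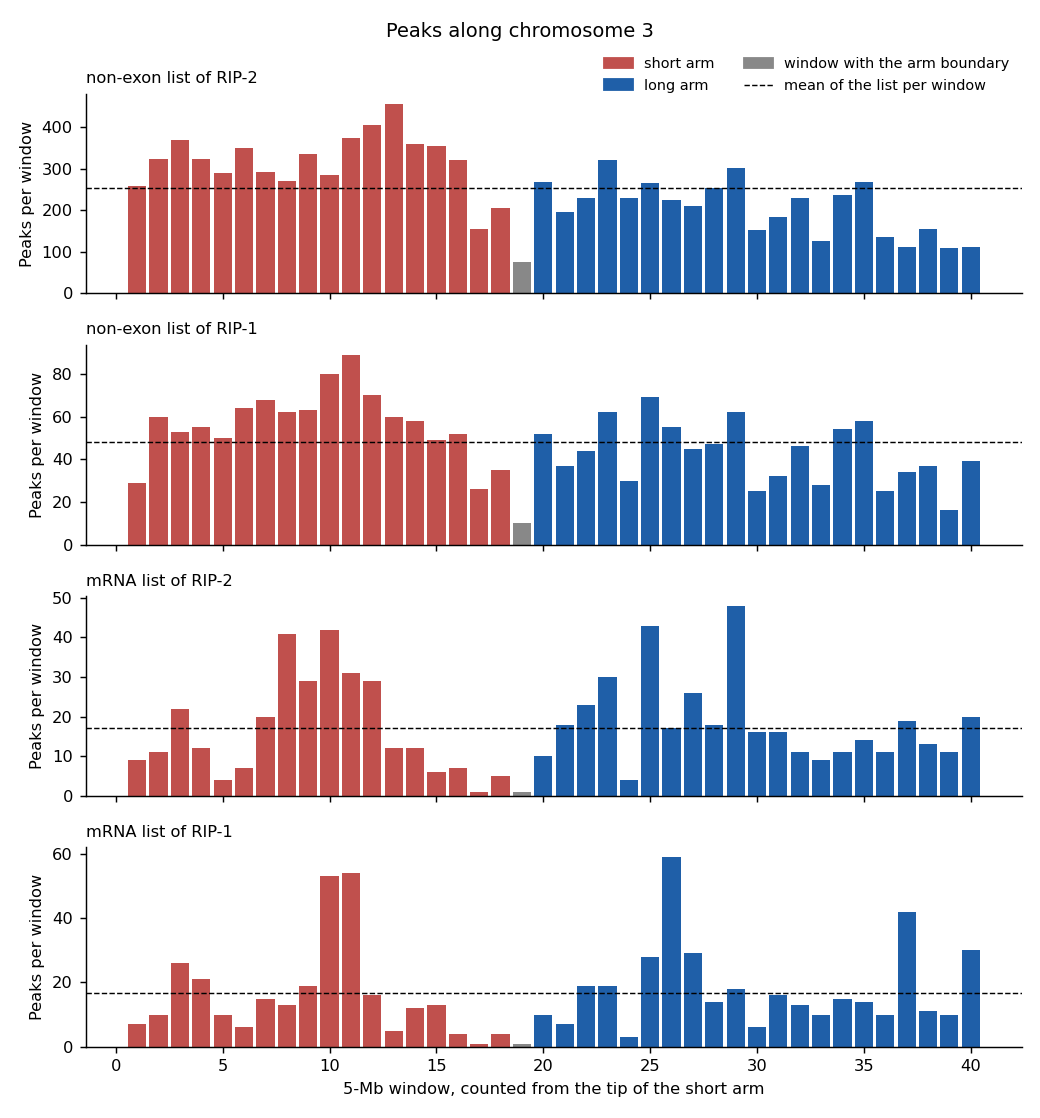
Number of peaks per 5-Mb window along chromosome 3 in the RIP-2 and RIP-1 non-exon lists (upper panels) and the RIP-2 and RIP-1 mRNA lists (lower panels), with short-arm windows in red, long-arm windows in blue, the window of the arm boundary in grey and the mean per window dashed. The non-exon lists are higher on the short arm, where 16 (RIP-2) and 15 (RIP-1) of 18 windows reach the mean, while the mRNA lists rise to narrow maxima on both arms.

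The mRNA lists were concentrated in few windows. In RIP-2 the highest counts were 48 peaks from 140 to 145 Mb, 43 from 120 to 125 Mb, 42 from 45 to 50 Mb, 41 from 35 to 40 Mb and 31 from 50 to 55 Mb. In RIP-1 they were 59 from 125 to 130 Mb, 54 from 50 to 55 Mb, 53 from 45 to 50 Mb, 42 from 180 to 185 Mb and 30 from 195 Mb to the end. The windows from 45 to 55 Mb were common to both sets of 5.

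Other windows differed strongly between the experiments. From 125 to 130 Mb RIP-2 had 17 mRNA-list peaks and RIP-1 had 59, a ratio of 0.288, the lowest on the chromosome. Their median scores were 73.3 in RIP-2 and 92.4 in RIP-1. From 35 to 40 Mb RIP-2 had 41 peaks and RIP-1 had 13, a ratio of 3.15, the highest. Of these, 32 RIP-2 and 9 RIP-1 peaks were on the plus strand. From 140 to 145 Mb RIP-2 had 48 peaks and RIP-1 had 18, and from 180 to 185 Mb RIP-2 had 19 and RIP-1 had 42, of which 14 and 35 were on the plus strand.

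Bins of 100 kb showed how local these differences were. The bin with the most RIP-2 mRNA-list peaks, from 108300001 to 108400000, held 10 in RIP-2 and 3 in RIP-1. Neighbouring bins from 121300001 to 121500000 held 8 RIP-2 peaks each and no RIP-1 mRNA-list peak. The richest RIP-1 bin, from 183400001 to 183500000, held 1 RIP-2 and 10 RIP-1 peaks, and the bin from 128800001 to 128900000 held 0 in RIP-2 and 8 in RIP-1. A run of mRNA-list peaks present in only 1 experiment was therefore found for RIP-2 and for RIP-1.

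Across the 40 windows, the counts of the same kind of list went together. The RIP-2 and RIP-1 non-exon counts had a Spearman rho of 0.806, and the RIP-2 and RIP-1 mRNA-list counts a rho of 0.780. On the 15 other chromosomes with at least 20 windows these values ranged from 0.599 to 0.884 and from 0.565 to 0.884. Within RIP-2, non-exon and mRNA-list counts had a rho of 0.231, and within RIP-1 a rho of 0.488. The number of RIP-2 per RIP-1 non-exon peaks was lower in windows with many RIP-1 mRNA-list peaks, with a rho of -0.662, against -0.701 to 0.0732 on the other chromosomes. Against RIP-2 mRNA-list counts the rho was -0.589, below the range of -0.453 to 0.187 elsewhere. These are descriptions: windows are neighbours on a chromosome and share the libraries of each experiment.

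Windows in which RIP-2 non-exon peaks crowd where RIP-1 peaks do not were sought as those with at least 1.5 times the RIP-2 mean and less than the RIP-1 mean. No 5-Mb window of chromosome 3 met both conditions. The 2 windows past 1.5 times the RIP-2 mean, from 55 to 65 Mb, had 1.45 and 1.24 times the RIP-1 mean. Only the first window, from 0 to 5 Mb, was above the mean in RIP-2 and below it in RIP-1, with 258 RIP-2 peaks (1.02 times) and 29 RIP-1 peaks (0.601 times). Its 8.90 RIP-2 peaks per RIP-1 peak were the highest value of the 40 windows, followed by 7.70 from 115 to 120 Mb, where RIP-2 had 231 and RIP-1 had 30 peaks. With windows of 2 Mb, 1 of 99 met the rule: between 4 and 6 Mb the RIP-2 list held 167 peaks (1.63 times its mean) and RIP-1 had 18 (0.923 times).

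**Figure D3:**
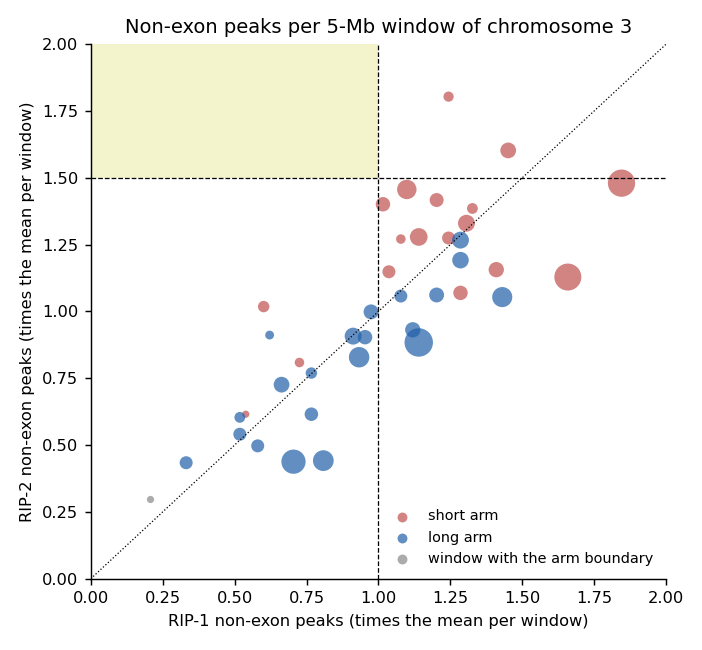
Each point is a 5-Mb window of chromosome 3, placed by its RIP-1 (horizontal) and RIP-2 (vertical) non-exon counts relative to the mean per window, coloured by arm, with an area that grows with the number of RIP-1 mRNA-list peaks. The shaded corner, where RIP-2 reaches 1.5 times its mean and RIP-1 stays below its own, is empty, and the large points lie mostly under the dotted line of equal values.

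At the very tip of the short arm, RIP-2 had 21 non-exon peaks before the first RIP-1 peak, which began at 500816. They started at 60237 and had a median fold enrichment of 8.67. Their density of 47.7 per Mb was below the 63.5 per Mb of the whole short arm. This end is therefore a place where RIP-1 peaks were missing, and not one where RIP-2 peaks were crowded.

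Smaller places with many RIP-2 non-exon peaks and no RIP-1 peak did exist. Between neighbouring RIP-1 peaks of either list, the most RIP-2 non-exon peaks were 42 in 489 kb of the long arm from 142896994 to 143386048, or 1.68 times the chromosome mean per Mb. The next held 36 in 297 kb from 54470524 to 54767087 (2.37 times), 35 in 329 kb from 64081971 to 64410606 (2.08 times) and, in place 5, 32 in 326 kb from 71855837 to 72182070 (1.92 times). The interval in place 4, from 116083534 to 117026870, held 33 only because it was 943 kb long, and its density was 0.683 times the mean. RIP-2 peaks in these 5 intervals had median fold enrichments from 7.23 to 8.67, around the 8.19 of all RIP-2 non-exon peaks of chromosome 3. In the counterpart, the intervals between neighbouring RIP-2 peaks held at most 5 RIP-1 non-exon peaks. An example was 44.9 kb on the short arm from 14421565 to 14466486, with 11.4 times the RIP-1 mean per Mb. The 5 leading intervals of this kind had 3.01 to 13.8 times that mean. With 10138 RIP-2 and 1930 RIP-1 non-exon peaks on the chromosome, the counts of both kinds of interval are not comparable.

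In bins of 100 kb, 251 of 1980 bins of chromosome 3 had 10 or more RIP-2 non-exon peaks (12.7%, 95% CI 11.3 to 14.2), against 9.01% of the bins of all chromosomes. Bins without any peak were counted too. Of all bins, 38 had 10 or more RIP-2 non-exon peaks and no RIP-1 peak of either list (1.92%, 95% CI 1.40 to 2.62), against 1.61% over all chromosomes. The share of these RIP-2-only bins was near the background. It was uneven between the arms, with 33 of 905 bins on the short arm (3.65%, 95% CI 2.61 to 5.08) and 5 of 1075 on the long arm (0.465%, 95% CI 0.199 to 1.08). That contrast partly follows RIP-2 density, since 18.7% of short-arm and 7.63% of long-arm bins had 10 or more RIP-2 peaks. Among bins rich in RIP-2 peaks, those without a RIP-1 peak made up 15.1% on chromosome 3 (95% CI 11.2 to 20.1) and 18.1% on the other chromosomes (95% CI 16.6 to 19.6), so rich bins of chromosome 3 did not lack RIP-1 peaks more often. By arm this share was 19.5% on the short arm (95% CI 14.3 to 26.2) and 6.10% on the long arm (95% CI 2.63 to 13.5). The fullest bins without RIP-1 peaks were on the long arm from 140800001 to 140900000, with 19 RIP-2 peaks, and from 112800001 to 112900000, with 17.

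RIP-2 counts per bin were higher where RIP-1 counts were higher. On the short arm, bins without a RIP-1 non-exon peak averaged 5.18 RIP-2 non-exon peaks, and bins with 3 averaged 8.40. On the long arm these means were 2.97 and 6.97, and on the other chromosomes 3.11 and 6.95. The short arm thus had more RIP-2 peaks than the long arm also among bins where RIP-1 had none, whose RIP-2 quartiles were 3 to 7 and 1 to 4.

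**Figure D4:**
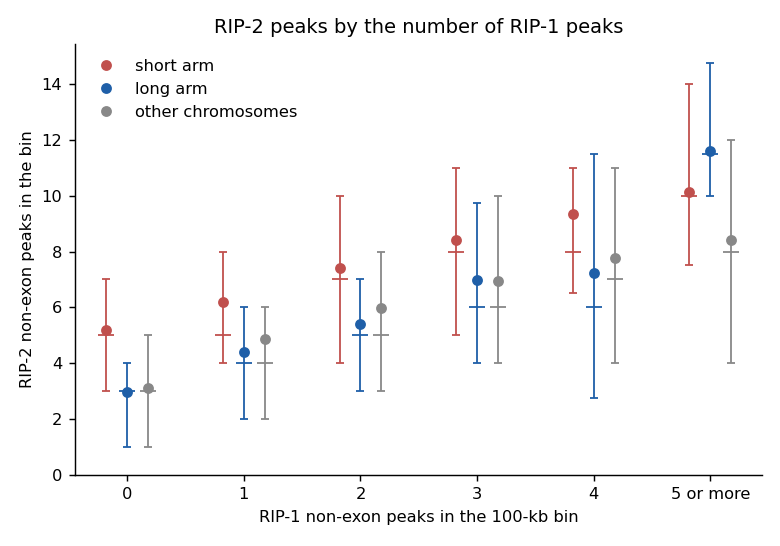
RIP-2 non-exon peaks per 100-kb bin (vertical) by the number of RIP-1 non-exon peaks in the bin (horizontal), for the short arm, the long arm and the other chromosomes, with means as points, medians as dashes and quartiles as bars. Bins without a RIP-1 peak have a mean of 5.18 on the short arm, against 2.97 on the long arm and 3.11 elsewhere.

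In strength the typical peak of chromosome 3 resembled those elsewhere. The RIP-2 non-exon list had a median score of 80.3 on chromosome 3 and 80.6 on the other chromosomes, and the same median fold enrichment of 8.19. The RIP-1 non-exon list had median scores of 66.3 and 66.95 and median fold enrichments of 6.37 and 6.56. Short-arm and long-arm medians were 80.9 and 79.6 for the RIP-2 score and 66.1 and 66.4 for the RIP-1 score, and both arms had a RIP-2 median fold enrichment of 8.19. The denser short arm thus had nearly the same median strength as the long arm. Its RIP-2 non-exon peaks were slightly wider, with a median of 589 bp against 557 bp on the long arm. Shares of non-exon peaks of 3 kb or more, a limit also chosen after the values were seen, had intervals that held the background, with 44 in RIP-2 (0.434%, 95% CI 0.323 to 0.582), against 0.441% of the whole list, and 45 in RIP-1 (2.33%, 95% CI 1.75 to 3.11), against 2.54%. Of the mRNA-list peaks, 4 in RIP-2 were so wide (0.581%, 95% CI 0.226 to 1.48), against 0.233% of the whole list, and 9 in RIP-1 (1.34%, 95% CI 0.705 to 2.52), against 1.19%. Of the 44 broad RIP-2 non-exon peaks, 32 lay on the short arm (0.556% of its peaks, 95% CI 0.394 to 0.784). The other 12 lay on the long arm (0.274%, 95% CI 0.157 to 0.478), and the intervals overlapped.

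Strong peaks made up a smaller share of the RIP-1 mRNA list on chromosome 3 than elsewhere. Scores of 200 or more, a limit chosen after the values were seen, were reached by 52 of 673 RIP-1 mRNA-list peaks (7.73%, 95% CI 5.94 to 9.99), against 11.9% on the other chromosomes (95% CI 11.3 to 12.6) and 11.7% in the whole list. In the RIP-2 mRNA list they were 43 of 689 (6.24%, 95% CI 4.67 to 8.30), against 5.74% in the whole list. Within RIP-1 the low value came from the long arm, where 21 of 384 peaks (5.47%, 95% CI 3.604 to 8.22) reached 200, while on the short arm 31 of 289 did (10.7%, 95% CI 7.66 to 14.8). For the non-exon lists the shares were 4.77% in RIP-2 and 1.66% in RIP-1 (95% CI 1.18 to 2.33), against 5.04% and 2.31% in the whole lists. The RIP-1 interval just held the share of its whole list. It ended just below the 2.36% of the other chromosomes (95% CI 2.18 to 2.56), whose interval overlapped it.

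The strongest RIP-2 non-exon peaks by fold enrichment all lay on the short arm. The highest of the whole RIP-2 list, 56.9, was from 303604 to 304308, and its nearest RIP-1 peak was 197 kb away. The next were 46.7 from 6741405 to 6742209, 45.1 from 18975765 to 18977201, 38.6 from 27042587 to 27043280 and 31.8 from 71871528 to 71872600. The nearest RIP-1 peaks of the peaks at 6741405, 18975765 and 71871528 were 10.7, 138 and 15.7 kb away. The peak at 27042587 overlapped a RIP-1 peak and began at the same base in both experiments, and in RIP-1 it had a fold enrichment of 4.40. The peak at 71871528 lies within the RIP-1-free interval in place 5 above. All 5 of these peaks had a deposited FDR of 100%. So did 41.5% of the RIP-2 and 95.3% of the RIP-1 non-exon peaks of chromosome 3, against 41.6% and 94.1% of the whole lists. The counts by arm, window and bin took in all peaks whatever their FDR.

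In RIP-1 the highest fold enrichments were lower and spread over both arms. They were 25.4 from 169200848 to 169201937, 24.7 from 53275862 to 53277311, 22.5 from 15295619 to 15298105, 21.9 from 185136038 to 185136681 and 21.4 from 51422692 to 51424249. All 5 had a false discovery rate (FDR) of 5% or less in the deposited list. In all, 12 RIP-1 non-exon peaks of chromosome 3 had such an FDR (0.622%, 95% CI 0.356 to 1.08), against 0.678% of the whole list, while the lowest FDR of RIP-2 was 68.3%. None of the 12 overlapped a RIP-2 peak of either list, and the nearest RIP-2 peak was between 4.28 and 19.7 kb away. Such overlap was limited in general. It reached 19.3% for the whole RIP-1 non-exon list of chromosome 3 against its RIP-2 counterpart (95% CI 17.6 to 21.1). With 12 peaks it cannot be told whether those of low FDR met RIP-2 less often than the rest.

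Several of these 12 peaks stood side by side. The widest non-exon peak of chromosome 3, of 17273 bp from 53258562 to 53275834, scored 2575 in RIP-1 and ended just before the peak at 53275862, which scored 2173. The strongest RIP-1 mRNA-list peak of the chromosome, with a score of 3201, lay further on, on the minus strand from 53289851 to 53290130. RIP-2 had no overlapping peak at any of these 3 RIP-1 peaks, as for most peaks of both RIP-1 lists. The nearest RIP-2 peaks there scored 299, 109 and 95.01. Other neighbours were at 15295619 and 15298170, with RIP-1 scores of 2068 and 486, and at 184016939 and 184018804, with 768 and 574.

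The other leading RIP-1 mRNA-list peaks were on the plus strand from 133306002 to 133309103 with a score of 3100 and from 133292433 to 133293128 with 1430, and on the minus strand from 15373777 to 15374136 with 1348 and from 52288437 to 52291535 with 970. The first of these was 103 kb from the nearest RIP-2 peak, the largest such distance of any RIP-1 mRNA-list peak on the chromosome. A score of 3100 looks like a cap of the peak caller, although higher values occur. It was reached by 1 of 689 RIP-2 and 2 of 673 RIP-1 mRNA-list peaks of chromosome 3. Over the whole lists 2 of 10280 RIP-2 peaks (0.0195%) and 58 of 10960 RIP-1 peaks (0.529%) reached it. No non-exon peak of chromosome 3 reached it, against 0.00597% of the whole RIP-2 list and 0.0814% of the whole RIP-1 list.

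Chromosome 3 held 3 of the 5 highest-scoring peaks of the whole RIP-2 mRNA list. These were on the plus strand from 150906140 to 150906267 with a score of 3100 and from 37365078 to 37369316 with 2775, and on the minus strand from 121412587 to 121417776 with 2202. The last is the widest RIP-2 mRNA-list peak of the chromosome, at 5189 bp, and had a neighbour on the same strand from 121409516 to 121411428 with a score of 998. The next was on the plus strand from 10082245 to 10083246 with 514. The nearest RIP-1 peaks of these 5 were 36.0, 12.3, 14.6, 21.0 and 24.7 kb away, so none overlapped a RIP-1 peak. Over the whole RIP-2 mRNA list only 6.91% of peaks overlapped a RIP-1 mRNA-list peak. The median distance of that list to a RIP-1 peak was 14.6 kb.

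Overlap of the experiments was measured as peaks of the same kind of list that share at least 1 bp, on the same strand for the mRNA lists. Of the chromosome 3 mRNA-list peaks, 52 of 689 RIP-2 peaks were shared (7.55%, 95% CI 5.80 to 9.76), against 6.91% of the whole list, and 51 of 673 RIP-1 peaks (7.58%, 95% CI 5.81 to 9.83), against 6.41%. Of the non-exon peaks, 390 of 10138 RIP-2 peaks were shared (3.85%, 95% CI 3.49 to 4.24), against 3.63%, and 373 of 1930 RIP-1 peaks (19.3%, 95% CI 17.6 to 21.1), against 18.1%. All 4 shares were a little above the background, which lay inside each interval. By arm, 18 of 300 RIP-2 mRNA-list peaks were shared on the short arm (6.0%, 95% CI 3.83 to 9.28) and 34 of 389 on the long arm (8.74%, 95% CI 6.32 to 11.97). The non-exon shares of RIP-1 were 19.1% on the short arm (95% CI 16.8 to 21.6) and 19.6% on the long arm (95% CI 17.1 to 22.3), although the short arm was denser in RIP-2 peaks. Where lists are denser, more peaks meet by position alone, and no chance level was computed here.

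**Figure D5:**
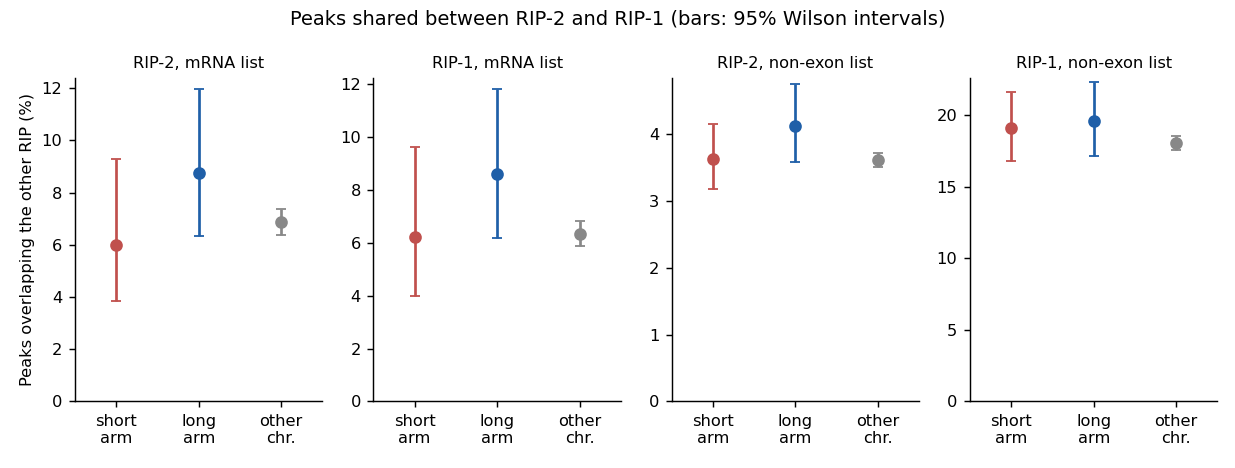
Percentage of peaks that overlap a peak of the other experiment on the short arm, the long arm and the other chromosomes, for each list, with 95% Wilson intervals. Vertical scales differ between panels, and the intervals of the short and the long arm overlap in every panel.

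Among the 52 overlapping mRNA-list pairs of chromosome 3, 32 had the same start and end in both experiments (61.5%, 95% CI 48.0 to 73.5), against 65.9% of the pairs of all chromosomes. The pair with the highest lower score lay on the plus strand from 100042919 to 100044093 in RIP-2 and from 100042430 to 100043585 in RIP-1, with scores of 179 and 130. The next had identical edges: the minus strand from 142089326 to 142089462, with 132 in RIP-2 and 105 in RIP-1, the plus strand from 51183979 to 51184061, with 126 and 105, and the minus strand from 48360986 to 48361108, with 95.5 and 175. A plus-strand pair starting at 132373289 scored 100.03 in RIP-2 and 89.5 in RIP-1. The other 5 pairs of the first 10 began in RIP-2 at 153958158, 107809709, 172520650, 182576949 and 169805713, with lower scores from 73.5 to 78.6, and all lay on the long arm. The highest score in these 10 pairs was 179, below the 5 leading peaks of either list. Over the 52 pairs the scores of RIP-2 and RIP-1 had a Spearman rho of -0.0717, given as a description.

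Shared non-exon peaks were wider than unshared ones, on chromosome 3 as elsewhere. Their median width on chromosome 3 was 746 bp against 571 bp for unshared peaks in RIP-2, and 922 bp against 695 bp in RIP-1. On the other chromosomes it was 726 bp against 559 bp in RIP-2, and 851.5 bp against 683 bp in RIP-1. The median fold enrichment of shared peaks on chromosome 3 was below that of unshared peaks, at 7.71 against 8.19 in RIP-2 and 5.80 against 6.50 in RIP-1. The same order of the medians held on the other chromosomes, at 7.71 against 8.19 in RIP-2 and 6.19 against 6.63 in RIP-1. The score ran the other way, with medians of 84.1 for shared and 80.2 for unshared peaks in RIP-2, and 69.8 and 65.7 in RIP-1. On the long arm alone the RIP-2 score was lower for shared peaks, at 77.0 against 79.6. The score was also higher for shared peaks on the other chromosomes, at 86.5 against 80.3 in RIP-2 and 69.1 against 66.6 in RIP-1. The pairs with the highest lower fold enrichment lay on the short arm from 70467159 to 70467948 in RIP-2, with 12.05 in RIP-2 and 11.6 in RIP-1, and from 34585500 and 68138631, with 10.6 in RIP-2 for each and 11.2 and 11.6 in RIP-1. The next began on the long arm at 144624136 with 10.6 in RIP-2 and 11.6 in RIP-1, and at 114566456 with 12.5 and 10.4. Over 394 pairs the fold enrichments had a rho of 0.125 on chromosome 3, against 0.223 over 4503 pairs elsewhere.

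Peaks of the experiments also lay near each other without overlapping. Among RIP-1 non-exon peaks of chromosome 3, 75.6% were within 10 kb of a RIP-2 peak of either list (95% CI 73.7 to 77.5), against 71.8% of the whole list, and the median distance was 3.33 kb. For RIP-1 mRNA-list peaks the share was 57.1% (95% CI 53.3 to 60.7), against 50.3%, and the median distance was 8.37 kb. In the other direction 28.8% of the RIP-2 non-exon peaks were within 10 kb of a RIP-1 peak (95% CI 27.9 to 29.7), against 26.7%. For RIP-2 mRNA-list peaks the share was 43.5% (95% CI 39.9 to 47.3), against 39.5%. All 4 shares were above the background, on a chromosome whose non-exon lists were also denser than the median.

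Within an experiment, RIP-1 non-exon peaks lay closer to mRNA-list peaks on the long arm. On the short arm 9.36% of the RIP-1 non-exon peaks were within 10 kb of a RIP-1 mRNA-list peak (95% CI 7.72 to 11.3), against 15.8% on the long arm (95% CI 13.6 to 18.3) and 13.0% on the other chromosomes. In RIP-2 the shares were 6.21% on the short arm (95% CI 5.61 to 6.86), 7.70% on the long arm (95% CI 6.95 to 8.53) and 6.83% on the other chromosomes. The short-arm interval thus lay below that of the long arm in both experiments, but in RIP-2 it held the value of the other chromosomes.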

How the data were processed

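Per the labels' protocols, RIP-seq libraries were made with commercial kits after removal of ribosomal RNA and sequenced from both ends with reads of 150 bp. The submitters' processing notes name cutadapt 1.9.3, HISAT2 2.0.4 and hg19. MACS is named only by a prefix in the peak names; its version, settings and control library were not given in the sources used here. The score deposited by the authors behaves as 10 times the negative log10 of a p-value. The non-exon lists also hold the deposited peak length, a fold enrichment (a ratio) and an FDR in percent, named from their values and column order, since the files have no header. Scores, folds and FDRs are the authors' own values per peak.

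Peaks were placed by midpoint into arms, windows of 5 Mb and bins of 100 kb with Python 3.11.15, numpy 2.4.6, pandas 2.3.3, scipy 1.17.1 and statsmodels 0.14.6. Overlap and counting were tested on simulated intervals. The long arm was taken up to the end of the last window. Named were the 5 highest scores of each mRNA list, the 5 highest fold enrichments of each non-exon list, 10 and 5 shared pairs, and the densest windows and intervals. The members, lists and rules were chosen with earlier results of these data known. Bins of 100 kb, nearest distances, the 5 highest-score non-exon peaks and the limits of 200 (score) and 3 kb were added after the values were seen. Genes and sequences would need an hg19 annotation or genome and were not analysed here.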

Additional observations from a re-analysis of the deposited data

How the results depend on the processing

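Of 46 alternative values, 37 stayed within 1.5 times the main value (counts, correlations) or inside its 95% interval (shares, arm ratios), and 9 moved. Shared RIP-2 mRNA-list peaks of chromosome 3 numbered 5 in the upper 50% of each list by score, against 52. Shared RIP-2 non-exon peaks numbered 257 with at least 50% of both peaks overlapping, 111 in the upper 50% by score and 86 with the strongest RIP-2 peaks only, as many as in RIP-1, against 390; these settings keep fewer peaks or pairs by construction. The RIP-2 non-exon density ratio of the short over the long arm was 1.72 by covered bases and 1.51 without the window of the arm boundary and the last window, against 1.59. The RIP-1 mRNA-list ratio, whose interval spans 1, was 1.15 by covered bases, against 0.911; the cause was not tested. With windows of 2 Mb, 1 window met the crowding rule, against 0. By covered bases 7.77% of the RIP-2 non-exon list lay on chromosome 3, against 7.56%. Every window held a peak of some list, so leaving out empty windows changed nothing by construction. The alternatives without the boundary window, with the long arm ending at the last peak, and for correlations were chosen after seeing the data. No paired analysis was possible because values per library were not analysed here, only 1 list per experiment, and for the same reason no replicate could be left out. Since depth is unknown, list lengths and scores of RIP-2 and RIP-1 cannot be scaled to each other.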
